A study of Brassica napus with 48 samples.

Results

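The seeds of Solar were compared with those of Lumen in control plots of the late sowing at 14 days after flowering (DAF), with 3 libraries of each genotype, which are 6 of the 48 libraries of the experiment. The libraries were chosen by their labels for genotype, source–sink (S–S) ratio, sowing date and time, and no measured value entered the choice. Both genotypes are spring hybrids of *Brassica napus* (rapeseed) that were grown in the field in split–split plots, and the control plots kept their full radiation. For each library, the seeds of 25 siliques were pooled from each of 5 plants, so that embryo, endosperm and seed coat were measured together, and fewer cells of a type cannot be told apart from less RNA per cell. The late-sown Solar and Lumen plots under black nets, which kept out 75% of sunlight until 15 DAF, gave another 6 libraries at 14 DAF that were set beside the control comparison. Levels are transcripts scaled to gene length and library total (TPM), which the authors normalized between libraries and rounded to whole numbers, and the read depth behind each value is unknown. The replicates were field replicates of a genotype, and the p-values measure the spread between their libraries.

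*B. napus* is an allotetraploid that carries an A and a C subgenome, and most genes are therefore present as homoeologous copies that can replace each other in sequence or in expression. In the weeks after flowering, the embryo of rapeseed grows at the expense of the endosperm, stays green for a time, and begins to deposit oil and storage proteins. WRINKLED1 (WRI1) activates fatty acid synthesis in this phase, oleosins coat the oil bodies, and the seed coat makes flavonoids.

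The labels were checked with genes that separated the genotypes in the shaded libraries, which do not enter the control comparison. The 109 genes with at least 5 TPM in every shaded Solar library and 0 in every shaded Lumen library summed to 1683, 1528 and 1684 TPM in the control Solar libraries, against 15, 7 and 31 TPM in the control Lumen libraries. The 137 genes of the opposite kind summed to 257, 2260 and 146 TPM in Solar and to 6357, 3079 and 2441 TPM in Lumen, so that Solar replicate 2 came near the lowest Lumen library. Seed stage, a difference between plots and mixed material cannot be told apart for this library. The median of the 137 genes was 0 TPM in every Solar library and 16, 13 and 11 TPM in Lumen, and 24, 44 and 10 of them reached 5 TPM in Solar, against 132, 129 and 132 in Lumen. BnaA02g24090D had 13, 514 and 13 TPM in Solar, against 1361, 204 and 207 TPM in Lumen. Counts of calls without Solar replicate 2 are therefore given where they differ from those with all libraries for the gene lists. Correlations of log2 levels over all genes tested lay between 0.894 and 0.937 within a genotype and between 0.791 and 0.873 between genotypes.

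Of the 101040 genes listed, the 56230 genes that reached 1 TPM in 3 or more of these libraries were tested with limma on log2(TPM + 0.5). A gene was called at an adjusted p under 0.01. In Solar, 1393 genes (2.48% of those tested) were higher and 1372 (2.44%) were lower, which together made 4.92% of the genes tested. These calls rest on a fit without the replicate number. With the replicate number as a block, limma called 0 genes higher and 0 lower (smallest adjusted p = 0.0181), with 6964 genes higher in Solar and 6728 genes lower in Solar at an unadjusted p under 0.05, and every call named below was lost. In the field design, both genotypes stood within each replicate, and the labels do not say whether the numbers of the libraries mark those replicates. Without Solar replicate 2, 975 genes were higher and 1152 lower. Leaving out Lumen replicate 2 reduced the number of genes higher in Solar to 923, and leaving out Solar replicate 1 reduced it to 928 and the number of genes lower in Solar to 913. Among genes with at least 1 TPM in all 6 libraries, 913 were higher with a median log2 difference of 1.06, and 864 were lower with a median of -1.21. The rounding left little spread among weak genes, and 444 of the called genes (16.1%) never exceeded 1 TPM in any of the 6 libraries. An annotation entry was at hand for 5169 of the genes tested. An Arabidopsis ortholog was given for 4289 of them, and some entries, such as that of BnaA06g17370D, held neither an ortholog nor a description. The entries come mostly from gene tables published with the study, which list genes that it had selected on these libraries. Of these 5169 genes, 359 (6.95%) were higher and 137 (2.65%) lower in Solar, so the annotated genes are not an even sample of the genes tested.

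The annotated genes with the largest differences had varied functions. BnaA02g34050D, a plant lipid transfer protein (ortholog of AT5G64080), had 105, 129 and 101 TPM in Solar, against 12, 5 and 4 TPM in Lumen. Its log2 difference was 4.04 ± 0.42 (SE, limma adjusted p = 0.00663). BnaC09g16340D, an ortholog of the chloroplast phytyl ester synthase PES1 (AT1G54570) with a diacylglycerol acyltransferase domain, had 69, 59 and 50 TPM in Solar and 3, 3 and 6 TPM in Lumen. The groups were far apart for this gene, with a log2 difference of 3.79 ± 0.30 (SE, limma adjusted p = 0.00254). BnaA04g22860D, an LYR protein of the complex 1 type, showed hardly any spread, with 36, 33 and 38 TPM in Solar and 2 TPM in each Lumen library. BnaA04g11990D encodes the alpha subunit of the translocon-associated complex, which helps nascent proteins into the endoplasmic reticulum. It reached 24, 35 and 45 TPM in Solar and 2, 2 and 1 TPM in Lumen. BnaC03g03940D, an actin gene orthologous to ACT7, had 21, 33 and 18 TPM in Solar, against 1 TPM in each Lumen library. BnaC02g01440D, a transferase, had 30, 20 and 23 TPM in Solar and 1 TPM in each Lumen library. BnaA02g33610D, a permease of nucleobases and ascorbate, stood at 38, 38 and 43 TPM in Solar and at 1, 2 and 4 TPM in Lumen. BnaA01g05410D, which has no description, had the largest positive difference among called genes with at least 1 TPM in all 6 libraries, with 185, 175 and 139 TPM in Solar and 5, 3 and 5 TPM in Lumen.

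Among the genes lower in Solar, BnaA05g08130D, an ortholog of AT2G36160 that encodes protein S11 of the small ribosomal subunit, had 1, 2 and 1 TPM in Solar and 54, 55 and 52 TPM in Lumen. The log2 difference was -4.93 ± 0.23 (SE, limma adjusted p = 0.000392). BnaA04g03590D, an ortholog of the cytosolic triosephosphate isomerase of glycolysis, had 15, 16 and 12 TPM in Solar, against 132, 117 and 114 TPM in Lumen. Its groups did not overlap, and the log2 difference was -3.04 ± 0.13 (SE, limma adjusted p = 0.00028). BnaA03g27500D, the G subunit of the vacuolar proton pump, was at 5, 6 and 4 TPM in Solar and at 44, 47 and 47 TPM in Lumen. BnaC01g01640D, an MRG protein that reads methylated histone H3, was at 3, 4 and 4 TPM in Solar and at 25, 25 and 30 TPM in Lumen. BnaA03g28450D, a subunit of the cytosolic chaperonin that folds actin and tubulin, had 2, 1 and 1 TPM in Solar and 14, 11 and 13 TPM in Lumen. BnaA08g10750D, an aldolase of the citrate lyase type, had 1 TPM in each Solar library, against 18, 15 and 16 TPM in Lumen. Of the genes without description, BnaA05g33020D and BnaCnng10370D were each at 1 TPM in all Solar libraries. They reached 115, 94 and 116 TPM (BnaA05g33020D) and 110, 100 and 114 TPM (BnaCnng10370D) in Lumen.

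**Figure D1:**
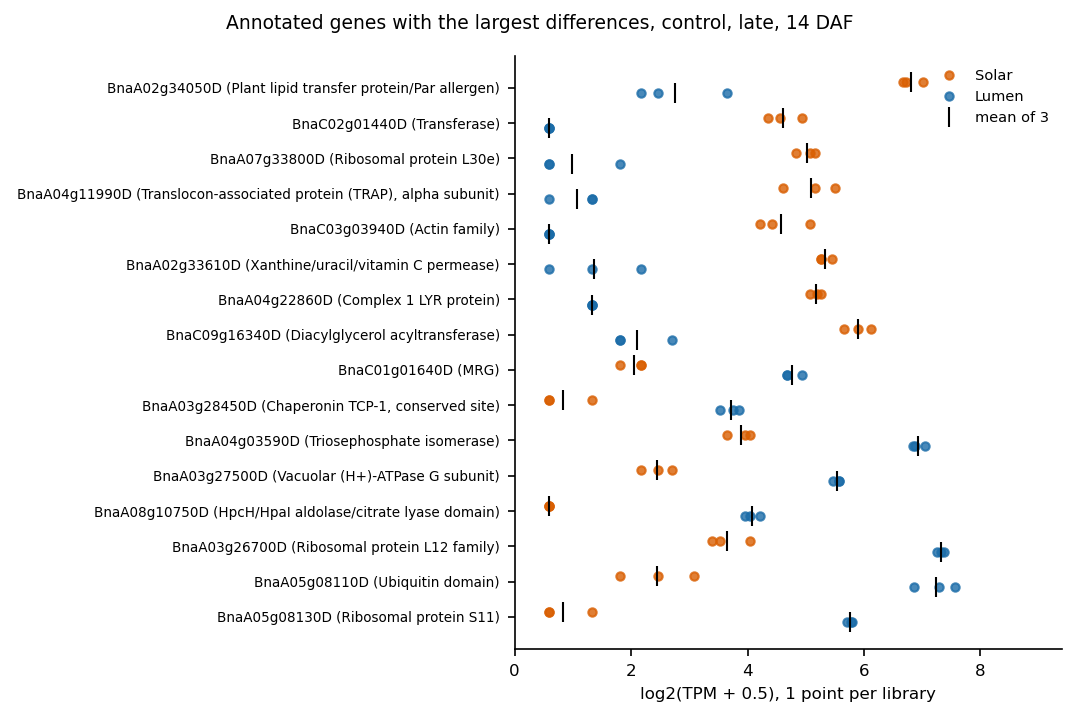
The 16 annotated genes with the largest differences, 8 in each direction, among called genes with at least 1 TPM in all 6 libraries (x axis, log2(TPM + 0.5)). Orange points are Solar libraries, blue points Lumen libraries and black ticks the means of 3. For each gene all 3 Solar points lie on one side of all 3 Lumen points, which follows from the choice of called genes.

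Strongly expressed genes also differed, by smaller factors. BnaA06g08510D, an ortholog of the cytosolic glyceraldehyde 3-phosphate dehydrogenase GAPC2, had 574, 530 and 575 TPM in Solar and 239, 259 and 275 TPM in Lumen (log2 difference 1.12 ± 0.08 SE, limma adjusted p = 0.00176). BnaA04g16750D, an ortholog of the aminodeoxychorismate synthase that starts the p-aminobenzoate branch of folate synthesis, had 298, 256 and 358 TPM in Solar and 20, 35 and 51 TPM in Lumen. Of all called genes, the one with the highest mean level over the 6 libraries was BnaA03g54880D, which has no description, with 6531, 5365 and 5090 TPM in Solar and 2073, 2474 and 2085 TPM in Lumen. In the other direction, BnaCnng40400D had 71, 67 and 86 TPM in Solar, against 976, 1548 and 1869 TPM in Lumen. The gene has no description either, and the groups were far apart. BnaC01g00910D, a histone H3 gene orthologous to AT4G40030, was lower by a smaller step, with 421, 374 and 414 TPM in Solar and 618, 649 and 699 TPM in Lumen (log2 difference -0.70 ± 0.08 SE, limma adjusted p = 0.00878). It was the 1 gene called among 35 histone genes tested, beside 6.95% higher and 2.65% lower among all annotated genes. It was not called without Solar replicate 2 (log2 difference of BnaC01g00910D -0.65, limma adjusted p = 0.0219).

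Ribosomal proteins were the largest list examined. Of 159 genes tested, 18 were higher and 11 lower in Solar, beside 6.95% and 2.65% of all annotated genes and 2.48% and 2.44% of all genes tested. The median log2 difference was 0.20, beside 0 over all genes tested. Their summed level was 8510, 8129 and 9158 TPM in Solar and 8300, 7371 and 7612 TPM in Lumen, so the sums overlapped. Library totals over all genes ranged from 1029050 TPM (Solar replicate 3) to 1195964 TPM (Lumen replicate 1), and the ribosomal sums were not rescaled to them. Single ribosomal genes differed by large factors in both directions. Without Solar replicate 2, 6 were higher and 4 lower. Among the genes higher in Solar, BnaA07g33800D (protein L30e) had 28, 33 and 35 TPM in Solar and 3, 1 and 1 TPM in Lumen. BnaC03g28760D (S13) had 128, 120 and 121 TPM in Solar, against 40, 43 and 47 TPM in Lumen. BnaA06g08350D (S12/S23) was at 21, 23 and 15 TPM in Solar and was listed at 0 in Lumen. Lower in Solar were BnaA03g26700D (L12 family), with 10, 16 and 11 TPM in Solar and 160, 165 and 152 TPM in Lumen, and BnaC06g35200D (L35A), with 72, 69 and 78 TPM in Solar and 203, 194 and 216 TPM in Lumen. Ribosomal proteins are encoded by several similar copies, and kallisto divides reads that fit several copies by estimate, so the split between copies is less certain than their sum.

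For this reason the copies of each Arabidopsis gene were set side by side. At least 2 tested copies were annotated for 646 Arabidopsis genes, and 121 of these had a called copy. Of all annotated genes, 6.95% were called higher and 2.65% lower, and an Arabidopsis gene with several copies can be called in any of them. In 7 of the 121 Arabidopsis genes, a copy was higher in Solar and another lower. In 108 the calls went in 1 direction and at least 1 copy was not called. In 6 every annotated copy was called in the same direction. An ortholog was given for 4289 of the 56230 genes tested, and copies without one enter neither these counts nor the sums. Whether these counts depart from the share of calls among annotated genes was not tested. The median size of the log2 difference was 1.56 for the most different called copy and 0.62 for the sum over the copies. The copies called were chosen for their difference, so this gap is a description and was not tested.

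AT2G36160, which encodes protein S11, gave the plainest case. While the copy BnaA05g08130D was nearly silent in Solar, BnaC03g19950D had 37, 29 and 30 TPM in Solar and 9, 5 and 7 TPM in Lumen (log2 difference 2.14 ± 0.23 SE, limma adjusted p = 0.00753). The sum over its 3 annotated copies was 45, 40 and 38 TPM in Solar, against 65, 62 and 60 TPM in Lumen. AT2G36170, a ubiquitin gene fused to a ribosomal protein, is the neighbour of AT2G36160 in number. It had 4 annotated copies, and all were called. BnaA03g16540D had 194, 159 and 204 TPM in Solar and 19, 16 and 20 TPM in Lumen. BnaA05g08110D had 5, 8 and 3 TPM in Solar and 188, 115 and 156 TPM in Lumen. The sum over these 4 copies came to 386, 289 and 394 TPM in Solar and to 379, 257 and 325 TPM in Lumen. These groups overlapped. AT4G00810, an acidic ribosomal protein of the L12 family, had BnaCnng01630D at 199, 189 and 237 TPM in Solar and at 106, 115 and 117 TPM in Lumen, with the opposite difference in BnaA03g26700D. For AT5G11770, a 20 kDa subunit of mitochondrial complex I, BnaA03g03560D was at 35, 35 and 33 TPM in Solar and at 18, 19 and 18 TPM in Lumen. Its copy BnaC03g05050D was at 24, 25 and 29 TPM in Solar and at 53, 57 and 56 TPM in Lumen. A copy on A10, BnaA10g20810D, was not called (47, 52 and 51 TPM in Solar, 52, 48 and 37 TPM in Lumen).

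**Figure D2:**
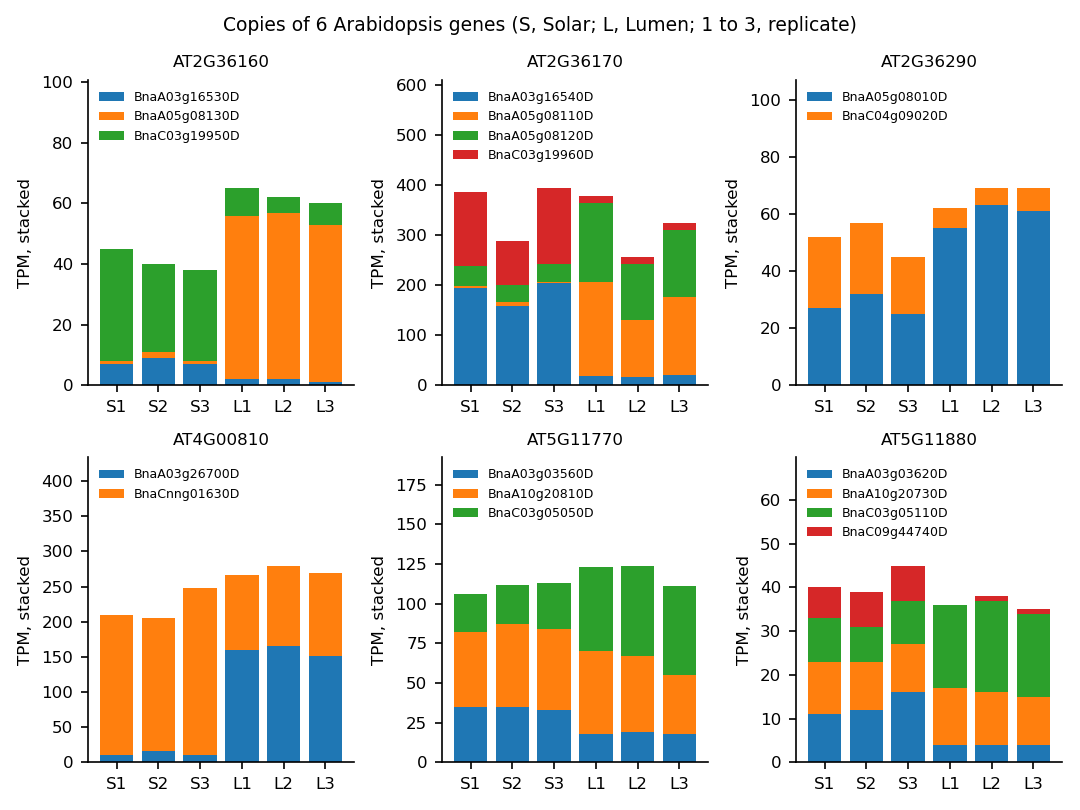
TPM of the annotated copies of 6 of the 7 Arabidopsis genes that had a copy higher and a copy lower in Solar. Copies are stacked for each library (x axis, Solar replicates 1 to 3 and then Lumen replicates 1 to 3). The opposite order of the copies follows from this choice. For AT2G36170 the sum was 289 to 394 TPM in Solar and 257 to 379 TPM in Lumen. For AT2G36160 it was 38 to 45 TPM in Solar and 60 to 65 TPM in Lumen, without overlap.

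A pair of 1 A and 1 C copy could be formed for 377 Arabidopsis genes, and both copies lacked a call in 318 pairs. The A copy alone was higher in 24 pairs and lower in 9, and the C copy alone was higher in 12 and lower in 9. Both copies were higher in 2 pairs. The A copy was higher and the C copy lower in 1 pair, and the reverse held in 2. The pairs rest on a common ortholog, and whether their genes are homoeologous was not tested. In AT3G11520, a B-type cyclin that acts at mitosis, BnaC09g12990D had 21, 20 and 17 TPM in Solar and 8, 8 and 7 TPM in Lumen, and BnaA10g26520D had 9 TPM in each Solar library and was listed at 0 in Lumen. These were the 2 genes called among 14 cyclin genes tested, beside 6.95% higher and 2.65% lower among all annotated genes. BnaC09g12990D was not called without Solar replicate 2.

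The genes that differed were not spread evenly over the chromosomes, as their identifiers order them. The share of higher genes was largest on C09 (5.62%) and C05 (4.48%), and that of lower genes on A01 (4.87%) and A05 (3.93%), beside 2.48% and 2.44% over all genes tested. Over the subgenomes, 2.28% of A genes and 2.64% of C genes were higher in Solar, and 3.19% of A genes and 1.78% of C genes were lower. In windows of 20 consecutive tested genes, of which there were 2495, the middle 90% of window medians lay between -0.40 and 0.45 on the log2 scale. The extremes were -1.82 and 1.93. In 49 windows the median was at least 0.7 and in 31 it was at most -0.7. All 80 of these windows had the same sign in the shaded libraries, and over all 2495 windows the medians of control and shaded plots had a Pearson's r of 0.845 and a Spearman's rho of 0.724. Windows share the mapping and the genome of the hybrids, and no test was made.

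Several long stretches were chosen after the window medians had been seen. At the start of C03 (BnaC03g00010D to BnaC03g05580D), 281 of 360 genes had a negative difference, with 35 called lower, 4 called higher and a median of -0.75. At the start of A03 (BnaA03g00580D to BnaA03g03810D), the reverse was found, and 161 of 220 genes had a positive difference, with 27 called higher, 5 called lower and a median of 0.57. These stretches hold copies of the same Arabidopsis genes. Of 26 pairs of a gene in the A03 stretch and a gene in the C03 stretch with a common ortholog, 21 were positive for the A03 copy and negative for the C03 copy, and 20 were so in the shaded libraries. Over these pairs the median was 0.71 for the A03 copies, -0.83 for the C03 copies and -0.07 for the sum of both copies. AT5G11880, a diaminopimelate decarboxylase of lysine synthesis, belongs to them. BnaA03g03620D had 11, 12 and 16 TPM in Solar and 4 TPM in each Lumen library, whereas BnaC03g05110D had 10, 8 and 10 TPM in Solar and 19, 21 and 19 TPM in Lumen. AT5G10840, a membrane protein of the nonaspanin family, went the other way, since BnaA03g03130D and BnaA03g03140D were lower in Solar, with log2 differences of -2.21 and -1.39, and BnaC03g04540D had a difference of 3.09 and was not called.

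On C05, 233 of 260 genes between BnaC05g38240D and BnaC05g42770D had a positive difference, and 45 were called higher and 1 lower (median 0.92, and 0.85 in the shaded libraries). On A05, between BnaA05g25630D and BnaA05g27690D, 117 of 140 genes had a negative difference, and 16 were called lower and 1 higher (median -0.62, and -0.67 in the shaded libraries). The C05 stretch holds BnaC05g40970D, an ortholog of FAD2, the desaturase that makes linoleic from oleic acid. It had 212, 236 and 196 TPM in Solar and 116, 112 and 111 TPM in Lumen, a log2 difference of 0.92 ± 0.08 (SE, limma adjusted p = 0.00389). FAD2 was the only gene called among 16 genes of fatty acid synthesis and desaturation, beside 6.95% called higher among all annotated genes. Toward the end of C05, 89 of 100 genes between BnaC05g46710D and BnaC05g48130D were positive, with 18 called higher, and the 40 genes from BnaC05g48420D to BnaC05g49040D had a median of -1.49 with 35 negative. In the first part of C09, up to BnaC09g23290D, 957 of 1240 genes had a positive difference (median 0.56), and 132 (10.6%) were called higher and 23 lower. In the rest of C09, 35 of 1731 genes (2.02%) were higher and 35 lower, with a median of 0. A short stretch of 28 genes on A05, from BnaA05g07800D to BnaA05g08130D, had 9 genes lower and none higher. It includes the ribosomal and ubiquitin copies described above and BnaA05g07860D, a starch branching enzyme orthologous to AT2G36390, with 17, 16 and 17 TPM in Solar and 31, 36 and 42 TPM in Lumen (log2 difference -1.09 ± 0.12 SE, limma adjusted p = 0.00779).

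**Figure D3:**
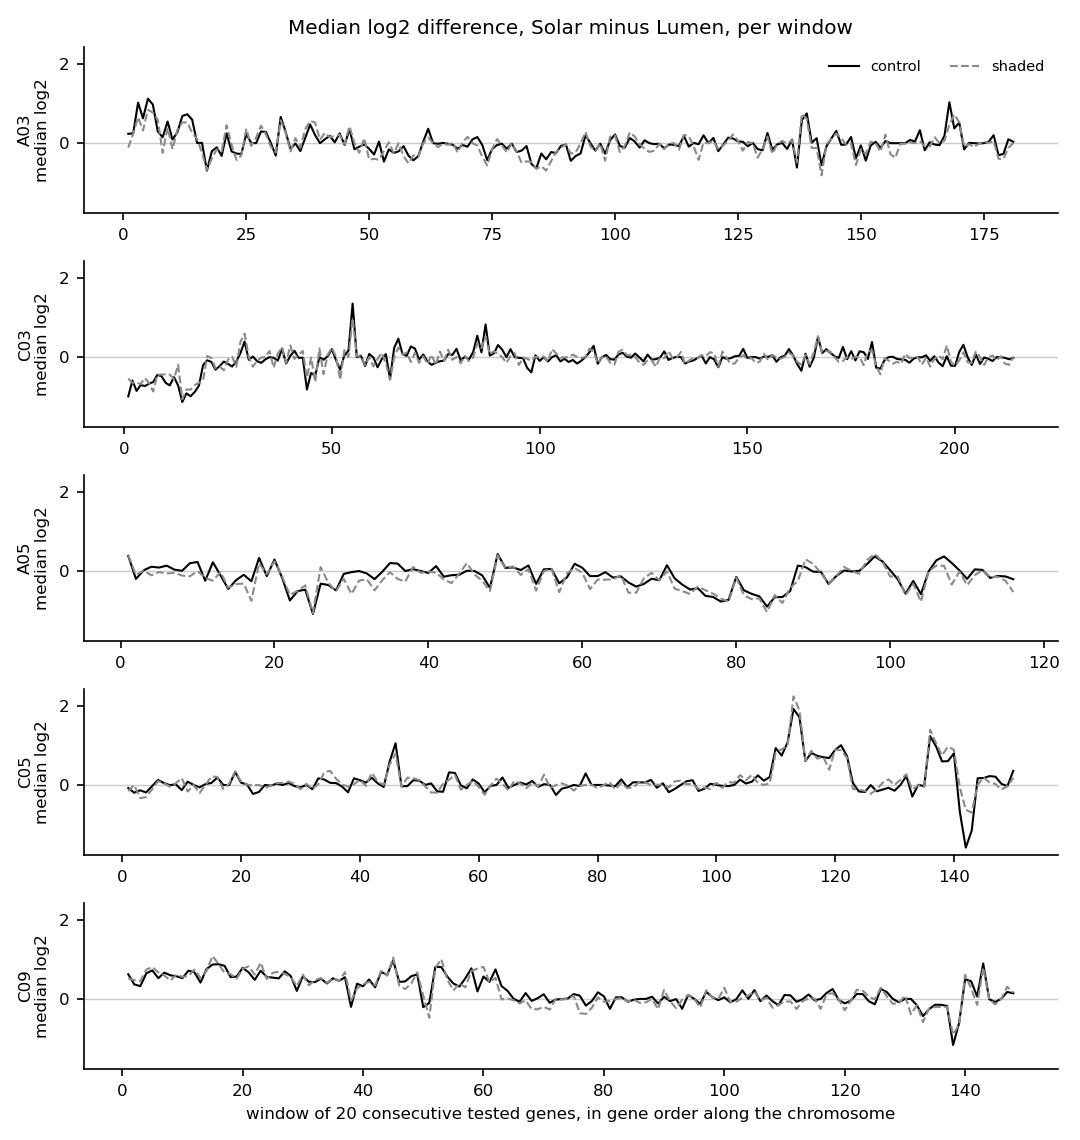
Median log2 difference, Solar minus Lumen (y axis), in windows of 20 consecutive tested genes in gene order along chromosomes A03, C03, A05, C05 and C09 (x axis). The solid line is the control comparison and the dashed line the shaded one, and the lines rise and fall together. The starts of A03 and C03 lie on opposite sides of 0, and the first part of C09 lies mostly above it, with a median over its genes of 0.56.

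No window had more than 8 of its 20 genes called in 1 direction, and of the windows with 8 such genes, those with the largest medians are described. On C03, 8 of 20 genes from BnaC03g17890D to BnaC03g18150D were higher (median 1.36), although the most abundant genes of the window were not called. BnaC03g18040D had 145, 98 and 185 TPM in Solar and 91, 127 and 151 TPM in Lumen, and the groups overlapped. On C02, 8 of 20 genes from BnaC02g03050D to BnaC02g03360D were higher and 1 lower, and BnaC02g03290D had 50, 40 and 43 TPM in Solar and 15, 13 and 14 TPM in Lumen. On A09, 8 of 20 genes from BnaA09g09580D to BnaA09g09920D were lower, among them BnaA09g09660D with 55, 45 and 55 TPM in Solar and 106, 102 and 110 TPM in Lumen. On C09, 8 of 20 genes from BnaC09g50320D to BnaC09g50610D were lower, among them BnaC09g50580D with 11, 9 and 9 TPM in Solar and 23, 33 and 30 TPM in Lumen. In the shaded plots BnaC09g50580D overlapped, with a log2 difference of -0.03. None of the genes named from these windows has a description in the tables used here.

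Some genes were listed in the seeds of 1 genotype only. In Solar, 73 genes had at least 5 TPM in all 3 libraries and were listed at 0 in all Lumen libraries, and 77 genes were listed only in Lumen. Of these, 47 and 51 were so in the shaded libraries too. Some entries are not separate observations. BnaA01g01390D and BnaA09g00240D had the same values in these 6 libraries, as did BnaA07g35990D and BnaC07g01860D. Among all genes tested, 638 shared their values with another gene in all 48 libraries, and 41 of these were called. The most abundant of those only in Solar was BnaA06g17370D, with 175, 180 and 195 TPM, which has no description. BnaA05g16320D, an ortholog of DAD1, a subunit of the oligosaccharyltransferase that glycosylates proteins in the endoplasmic reticulum, had 92, 81 and 85 TPM in Solar. BnaC01g39430D, of the clathrin heavy chain type, had 49, 62 and 54 TPM in Solar. Only in Lumen, BnaC04g10550D had 75, 59 and 85 TPM and BnaA03g08760D 26, 80 and 83 TPM, and neither has a description. BnaC01g26070D, of the heat shock protein 70 family, had 10, 10 and 12 TPM in Lumen. A value of 0 in these tables is a rounded level under 0.5 TPM and does not show that a gene is missing from a genome.

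Orthologs of WRI1 and oleosins had lower mean levels in Solar than in Lumen, but none of them passed the test, and the replicates of each genotype were far apart. BnaC08g25150D, an ortholog of WRI1, had 7, 17 and 3 TPM in Solar and 162, 55 and 44 TPM in Lumen. The log2 difference was -3.26 ± 0.80 (SE, limma adjusted p = 0.0691). The other WRI1 orthologs overlapped between genotypes, with BnaA07g16350D at 17, 66 and 5 TPM in Solar and 151, 56 and 43 TPM in Lumen, and BnaA09g34250D at 9, 46 and 6 TPM in Solar and 113, 44 and 31 TPM in Lumen. These 3 genes were also the whole list of embryo markers that the annotation held. The 3 oleosin genes tested did not exceed 5 TPM in Solar. BnaC04g38160D had 1, 5 and 0 TPM in Solar and 42, 23 and 9 TPM in Lumen (log2 difference -3.72 ± 1.07 SE, limma adjusted p = 0.101), and BnaC08g03140D had 0, 4 and 1 TPM in Solar, against 22, 15 and 7 TPM in Lumen. Subunits of plastid acetyl-CoA carboxylase, which makes the malonyl-CoA for fatty acids, were not called either. For BnaA05g06620D, the alpha carboxyltransferase, the values were 5, 7 and 5 TPM in Solar and 16, 12 and 13 TPM in Lumen (log2 difference -1.21 ± 0.18 SE, limma adjusted p = 0.0172). BnaA03g05470D, an ortholog of the biotin carrier BCCP2, had 5, 12 and 5 TPM in Solar and 39, 24 and 13 TPM in Lumen. Over the 16 genes of fatty acid synthesis, the median log2 difference was -0.53, with 11 negative. Without Solar replicate 2, the medians were -2.87 for the WRI1 orthologs, -3.99 for the oleosins and -0.68 for fatty acid synthesis.

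Of 9 flavonoid genes of the seed coat, 7 had a negative difference and none was called, and their median log2 difference was -0.71 (-1.04 without Solar replicate 2). Chalcone synthase opens this pathway, and its copy BnaA10g19670D had 97, 191 and 83 TPM in Solar and 637, 426 and 298 TPM in Lumen. The groups did not overlap, which 12.5% of all genes tested did in this direction, and the gene was not called (log2 difference -1.90 ± 0.44 SE, limma adjusted p = 0.0589). The copies BnaA03g04590D (40, 68 and 22 TPM in Solar, 254, 180 and 102 TPM in Lumen) and BnaC03g06120D (46, 88 and 34 TPM in Solar, 161, 121 and 95 TPM in Lumen) had the same order. BnaC08g26020D, a chalcone isomerase, had 95, 123 and 82 TPM in Solar and 268, 177 and 162 TPM in Lumen. BnaA10g23330D, the flavonoid 3′-hydroxylase of AT5G07990, acts later in the pathway and had 344, 291 and 318 TPM in Solar and 183, 257 and 255 TPM in Lumen. Both seed coat markers that were tested had a positive difference, and neither was called. BnaC05g39780D, an ortholog of MYB5, had 13, 13 and 18 TPM in Solar and 2, 8 and 4 TPM in Lumen, and BnaA05g14410D, an ortholog of MUM4 of mucilage synthesis, had 4, 3 and 5 TPM in Solar and 1, 2 and 3 TPM in Lumen.

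Of 10 photosynthesis genes tested, 8 had a positive difference, with a median of 1.49. Of these 10, 1 was called higher, beside 6.95% of all annotated genes. Without Solar replicate 2, the median was 1.33 and none was called. The called gene, BnaA03g36010D, encodes a 5 kDa protein of photosystem II and had 84, 62 and 39 TPM in Solar and 8, 7 and 8 TPM in Lumen (log2 difference 2.86 ± 0.30 SE, limma adjusted p = 0.00647). BnaA05g05540D, a chlorophyll a/b binding protein, had 67, 72 and 67 TPM in Solar, against 33, 24 and 36 TPM in Lumen (log2 difference 1.15 ± 0.17 SE, limma adjusted p = 0.0158). The small subunit of Rubisco again showed copies in opposite order. BnaA04g08570D had 96, 122 and 113 TPM in Solar and 49, 53 and 63 TPM in Lumen, and BnaA04g08640D had 23, 20 and 26 TPM in Solar and 110, 78 and 45 TPM in Lumen, and neither was called. BnaC06g20460D, an ortholog of the early light-induced protein ELIP1, had 11, 6 and 38 TPM in Solar, was listed at 0 in Lumen, and was not called.

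**Figure D4:**
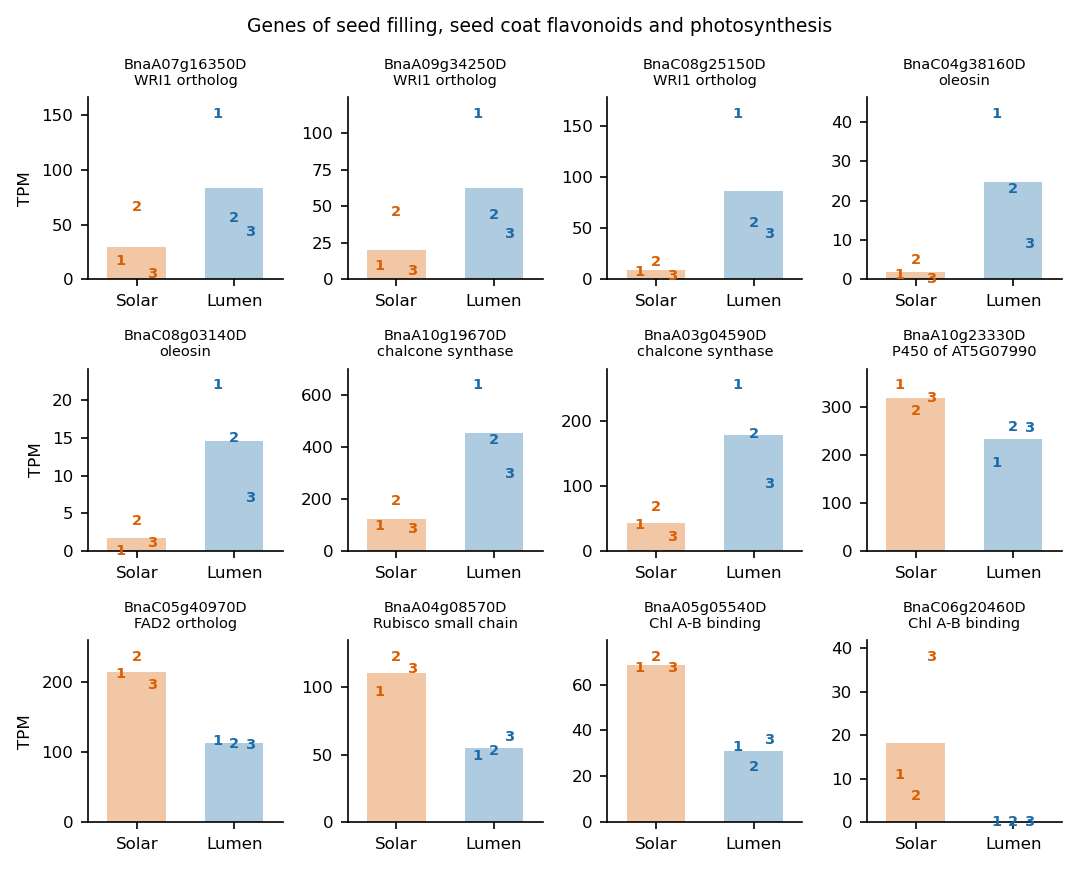
TPM of 12 genes of seed filling, seed coat flavonoids and photosynthesis, chosen after their values were seen. Bars start at 0 and show the mean of 3 libraries, with Solar (orange) left of Lumen (blue), and the digits mark replicates 1 to 3. In the WRI1 orthologs, oleosins and chalcone synthases, Solar replicate 2 is the highest Solar library and Lumen replicate 1 the highest Lumen library.

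Genes whose level changes with time were examined in the same libraries. From the shaded late-sown Lumen libraries, 547 genes (0.976% of those tested for time) were higher at 14 than at 7 DAF (limma, adjusted p under 0.01), and 491 of them were tested here. In Solar, 3 of these 491 genes were higher and 22 (4.48%) lower, beside 2.48% and 2.44% of all genes tested. The median log2 difference was -0.31, beside 0 over all genes, with 319 negative. Their mean log2 level was 2.18, 2.41 and 1.64 in Solar and 2.72, 2.38 and 2.38 in Lumen, so Solar replicate 2 lay within the Lumen range and Solar replicate 3 was lowest. Of the 603 genes (1.08%) that were lower at 14 than at 7 DAF, 295 were tested here, and of these 24 (8.14%) were higher in Solar and 7 (2.37%) lower, and the median was 0.49. Their mean log2 level was 1.48, 1.34 and 1.78 in Solar and 0.96, 1.13 and 1.22 in Lumen. Here every Solar library was above every Lumen library. A gene under 1 TPM in all Lumen libraries was tested only where all 3 Solar libraries reached 1 TPM. The filter therefore favours genes higher in Solar in this list, and its share in these values was not tested. Without Solar replicate 2, 5 higher and 28 lower genes were called among those that rose with time (median -0.42), and 25 and 9 among those that fell (median 0.43). Both lists were drawn from Lumen alone, so a gene expressed only in Solar could not enter them. What this choice adds to the share of lower genes among those that rose with time was not tested. The part of seed age in the differences between genotypes was not tested.

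Among stress-related genes, 2 of 14 heat shock genes were higher and 1 lower, beside 6.95% and 2.65% of all annotated genes. Without Solar replicate 2, 1 was higher and 1 lower. BnaA03g11150D, an HSP90 chaperone, had 30, 26 and 29 TPM in Solar and 8, 7 and 8 TPM in Lumen (log2 difference 1.82 ± 0.09 SE, limma adjusted p = 0.000432). BnaC09g22180D, an ortholog of the plastid HSP90, had 9, 9 and 11 TPM in Solar and 3, 3 and 4 TPM in Lumen. Of 24 NAC transcription factors tested, BnaA03g04640D alone was called, with 1 TPM in each Solar library and 6, 9 and 8 TPM in Lumen. Of 6 immune receptor genes of the NB-ARC and TIR type, 2 were higher in Solar, at levels of at most 3 TPM. Among 8 genes of sucrose and starch metabolism, the branching enzyme named above was the only call, and none was called without Solar replicate 2. BnaC05g28320D, a granule-bound starch synthase, had 97, 98 and 119 TPM in Solar and 50, 72 and 71 TPM in Lumen (limma adjusted p = 0.0749). BnaC03g10290D, a sucrose synthase, overlapped, with 47, 37 and 60 TPM in Solar and 35, 48 and 51 TPM in Lumen. Of the glucosinolate genes, the sulfotransferase BnaC06g34990D had 16, 23 and 9 TPM in Solar and 52, 36 and 40 TPM in Lumen (limma adjusted p = 0.0755).

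Most genes that the study discusses by identifier in relation to seed weight and seed number were weak in these seeds. NAC082, NAC041 and IDD1 had higher levels than the others. Of the 16 genes that the study names, 12 were tested and none was called, and none had an unadjusted p under 0.05. The NAC gene BnaC09g47170D (NAC082) had 12, 13 and 7 TPM in Solar and 13, 14 and 9 TPM in Lumen. BnaC04g43920D (NAC041) had 6, 15 and 6 TPM in Solar and 9, 7 and 7 TPM in Lumen. BnaA09g52630D (IDD1), a zinc finger protein, had 15, 16 and 15 TPM in Solar and 12, 16 and 13 TPM in Lumen. The sugar transporters BnaC03g52910D (SWEET11) and BnaC09g04760D (SWEET12) had 3, 1 and 5 TPM and 1, 1 and 2 TPM in Solar, against 1, 2 and 2 TPM and 0, 0 and 1 TPM in Lumen. BnaA07g38140D (CRF6), BnaC01g44850D (NGAL2), BnaA09g41470D (LRL1), BnaA05g24050D (NAC3), BnaC07g13570D (SUC2) and the DA2 genes BnaA02g18890D and BnaA01g19380D did not exceed 5 TPM in any of the 6 libraries. In the shaded libraries, some of these genes had higher levels in Solar. SWEET11 had 10, 12 and 12 TPM in shaded Solar and 3, 4 and 4 TPM in shaded Lumen (limma adjusted p = 0.00511), and SWEET12 had 9, 9 and 8 TPM in shaded Solar and 1, 2 and 1 TPM in shaded Lumen (limma adjusted p = 0.00607). The interaction of genotype and S–S ratio was not called for either (limma adjusted p = 0.82 for SWEET11 and 0.803 for SWEET12). NGAL2 had 5, 10 and 13 TPM in shaded Solar and 1 TPM in each shaded Lumen library, against 1, 1 and 2 TPM in both genotypes of the control plots, and its interaction was not called (limma adjusted p = 0.2).

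Shading gave a separate view of the same genotypes, since the shaded comparison shares no library with the control one. In the shaded plots, 1137 of the 56230 genes (2.02%) were higher in Solar and 1227 (2.18%) lower. Called in both comparisons were 436 higher and 468 lower genes, and none was called in opposite directions. The 436 genes made 31.3% of the control calls and 38.3% of the shaded ones, and the 468 genes 34.1% and 38.1%. Of the 1393 genes higher in control plots, 1312 (94.2%) had a positive difference in shaded plots, with a median of 1.1. Of the 1372 lower genes, 1282 (93.4%) had a negative one, with a median of -1.3. The shaded groups did not overlap, in the same direction, for 982 (70.5%) of the higher and 1010 (73.6%) of the lower genes. Over all genes tested, the shaded groups did so for 13.3% in the higher and 15.1% in the lower direction. The ribosomal gene BnaA05g08130D had a log2 difference of -5.78 in shaded plots, triosephosphate isomerase BnaA04g03590D -3.12, and the LYR gene BnaA04g22860D 3.31. BnaC05g40970D (FAD2) had a shaded difference of 0.56 and was not called there (limma adjusted p = 0.136).

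**Figure D5:**
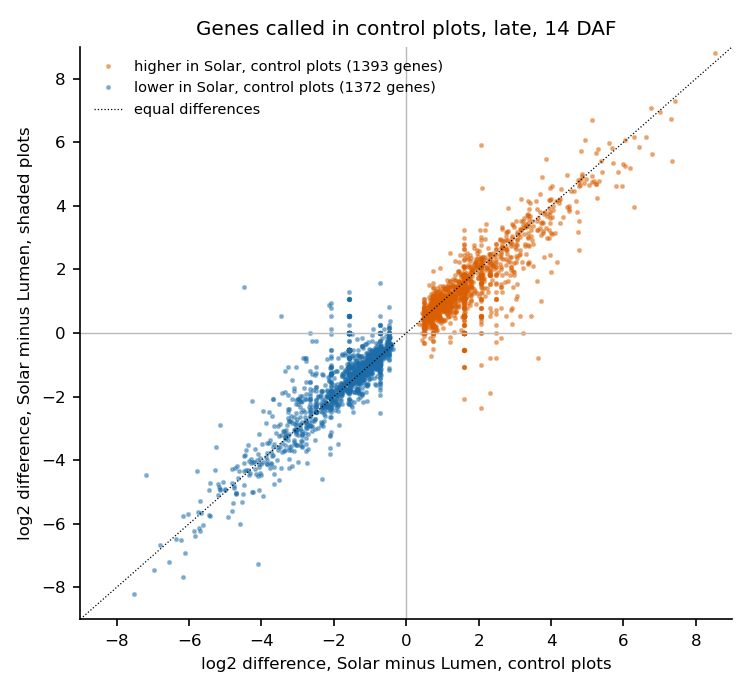
Log2 differences, Solar minus Lumen, of the 2765 genes called in control plots (x axis) beside those of the same genes in shaded plots (y axis), with genes higher in Solar in orange and lower in blue. The points lie mostly in the quadrants of equal sign, 1312 of 1393 higher and 1282 of 1372 lower genes, and the columns of points at small differences are genes of 1 or 2 TPM with rounded values.

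The difference between the control and the shaded comparison was tested as an interaction of genotype and S–S ratio over the 12 libraries. With limma, no gene had an adjusted p under 0.01, and the smallest was 0.0298. This count depended on the settings, with 21 genes called at a pseudocount of 0.1, 50 without the trend, 15 in the fit of all 48 libraries and 16 without shaded Solar replicate 1. At an adjusted p under 0.05 there were 22 genes, and 3490 genes (6.21%) had an unadjusted p under 0.05. With 3 libraries in each group, this does not show that the differences were equal. The WRI1 orthologs had shaded differences of -5.13 (BnaA07g16350D), -3.77 (BnaA09g34250D) and -5.23 (BnaC08g25150D), against -1.95, -1.93 and -3.26 in control plots, and none was called in either.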

How the data were processed

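RNA of whole seeds was sequenced, and the authors assigned the reads to the *B. napus* transcripts of Ensembl Plants with kallisto (version 0.46, per the labels) and normalized TPM values between libraries with sleuth. The deposited values are these normalized TPM rounded by the authors to whole numbers, and they were treated as a score rather than as counts, so the read depth is unknown and no counting interval is given. Groups were taken from the labels. Genes that reached 1 TPM in 3 or more of the 6 libraries were tested on log2(TPM + 0.5) with limma (version 3.58.1, R 4.3.3, empirical Bayes with trend) and Benjamini-Hochberg adjustment over all of them, with calls at an adjusted p under 0.01. Fold changes on this scale understate the change of weak genes. The script for the comparison was tested on simulated data. Figures were drawn with matplotlib 3.10.9.

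The comparison, the gene lists, the stretches and the named genes were chosen with earlier results of these data known. Named were, among called genes, the 8 annotated and the 3 genes of any kind with the largest difference in each direction and at least 1 TPM in all 6 libraries, the 6 in each direction with the highest mean level and a log2 difference of at least 1, up to 4 for each list, the 5 most abundant in each direction listed at 0 in the other genotype, 3 genes of each of the windows with most calls, and every gene the study gives by identifier. Genes of copies, stretches, seed filling and lists that were not called were chosen after their values were seen. Orthologs and descriptions came from tables published with the study, and no sequence was used here. Alternatives were other pseudocounts, filters, scalings, thresholds, sets of libraries, a replicate block and leaving out each library. The values without Solar replicate 2 for lists and time-dependent genes were chosen after seeing the data.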

Additional observations from a re-analysis of the deposited data

Results flagged for a closer look

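BnaA04g19530D, a NAC transcription factor (ortholog of AT2G33480), had 7, 7 and 5 TPM in Solar and 15, 9 and 12 TPM in Lumen in control plots. In shaded plots it had 10, 23 and 22 TPM in Solar and 9, 5 and 8 TPM in Lumen, so that the genotypes were separated in opposite directions. The log2 difference was -0.86 in control plots (limma adjusted p = 0.0873) and 1.22 in shaded plots (limma adjusted p = 0.126), and the interaction was -2.07 with an unadjusted p of 0.00161 in the limma fit (adjusted p = 0.32). The difference between the plots thus failed the correction over all genes. The C copy with the same ortholog is BnaC04g43920D (NAC041), whose genotypes overlapped in control plots. In shaded plots NAC041 had 16, 21 and 20 TPM in Solar and 7, 2 and 5 TPM in Lumen. Its interaction was -1.95 and was not called (limma adjusted p = 0.583). Of the 56230 genes tested, 13 (0.0231%) and 28 (0.0498%) were separated in opposite directions in the 2 comparisons, depending on which came out higher in control plots.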

How the results depend on the processing

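The number of genes higher in Solar and the number of genes lower in Solar stayed within 1.5 times the main ones under other pseudocounts, filters on low values, median-ratio and quantile scaling, and without the trend, and none of the 2765 called genes changed sign in any setting that still tested it. Scaling each library to the same sum gave 816 higher and 803 lower genes, an adjusted p under 0.05 gave 3602 and 3351, the fit of all 48 libraries 3132 and 3256, and the fit of the 12 late-sown libraries at 14 DAF 2090 higher genes. Leaving out 1 library gave 923 to 1125 higher and 913 to 1190 lower genes. With the replicate block, limma called 0 genes higher and 0 lower, with 6964 and 6728 at an unadjusted p under 0.05. Same-numbered libraries did not deviate together in every pair, and the labels do not say that a number marks a field replicate, so the numbers were not taken to pair the libraries. The interaction with shading was called for 21 genes with a pseudocount of 0.1, 50 without the trend, 22 at an adjusted p under 0.05, 15 with 48 libraries, and 0 to 16 when 1 library was left out, with 16 without shaded Solar replicate 1. Genes listed in 1 genotype only numbered 229 (0 in Lumen) and 236 (0 in Solar) at 2 TPM and 37 and 29 at 10 TPM. In windows of 40 genes, the extreme medians were -1.21 and 1.76. Among named genes that were not called, leaving out 1 library gave a log2 difference of BnaC03g18040D between -0.0143 and 0.44, and log2 differences of -0.092 to 0.032 for BnaC03g17910D, -0.40 to 0.025 for BnaC09g50540D, -0.37 to 0.079 for BnaC09g47170D, -0.15 to 0.79 for BnaA07g38140D, -0.32 to 0.31 for BnaC04g43920D and -0.74 to 0.42 for BnaC07g13570D. BnaC07g13570D had -0.057 with a pseudocount of 1, and BnaC03g17910D 0.015 when scaled to the same sum and 0.0077 with quantile scaling. The cause of these changes was not tested. The depth is unknown, and levels under a few TPM are limited by the rounding.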

Other observations

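Protein families with at least 20 tested genes were counted by their description, a choice made after the data were seen. Protein kinases had 9 higher and 2 lower genes in Solar among 180, with a median log2 difference of 0.17. AP2/ERF transcription factors, which include regulators of stress responses and of seed oil, had 29 of 41 genes with a positive difference, 1 higher and none lower (median 0.32). Basic-leucine zipper factors had 1 higher gene among 26 (median 0.38). Small GTPases, which direct vesicle traffic, had 2 lower and no higher genes among 21, and 15 of them had a negative difference (median -0.35). RING-type zinc fingers had 4 higher and 1 lower among 81, and WD40 repeat proteins 4 and 1 among 59. No gene was called among 25 cytochromes P450, 23 homeobox genes or 20 ABC transporters. These counts stand beside 6.95% higher and 2.65% lower among all annotated genes, and no family was tested against the others. The calls of annotated genes thus lean to higher levels in Solar. Their median and share of positive differences are not given here, so a positive family median is not read as a trait of the family.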
